A study of Mus musculus with 96 samples.

Results

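Protein kinase A (PKA) is the kinase that cyclic AMP switches on, and the expression of its subunit genes was described in single neurons of the mouse preoptic area. The 6 genes chosen by name were the catalytic subunits Prkaca and Prkacb, the type I regulatory subunits Prkar1a and Prkar1b, and the type II regulatory subunits Prkar2a and Prkar2b. All 6 were among the 24054 genes of the count table. The family was chosen because Prkar2a had been seen to be higher in temperature-sensitive cells, so the values of Prkar2a between sensitive and insensitive cells are a description of what selected it and support nothing further.

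The series holds 96 preoptic neurons of C57BL/6N mice aged 2 to 3 months, recorded in acute slices by whole-cell patch clamp while their response to temperature was measured, drawn into a glass pipette and sequenced by Smart-seq2. By label, 24 cells were temperature-insensitive, 21 warm-sensitive and 5 cold-sensitive, 18 were silent and insensitive, 10 were silent and sensitive, and 18 were of unknown class. All 96 cells share strain, age range, tissue and recording, and no transgene or drug is named for any group. The labels name no animal, slice or day, so cells of a class may share an animal, each class counts as 1 sample, and the comparisons carry no test. SDs and intervals below describe the spread or the counting error over cells only. The cells of unknown class are given as ranges and medians and enter no comparison.

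In a resting cell, a dimer of regulatory subunits holds and blocks catalytic subunits. Cyclic AMP, made by adenylyl cyclases under control of Gs- and Gi-coupled receptors and broken down by phosphodiesterases, binds the regulatory subunits and frees the catalytic subunits to phosphorylate ion channels, phosphatase inhibitors and the transcription factor CREB. Type I holoenzymes are mostly soluble, whereas type II holoenzymes are mostly tethered by A-kinase anchoring proteins. Prkaca and Prkar1a are found in most tissues, Prkar1b is mainly neuronal, and Prkacb and Prkar2b are abundant in brain. In the preoptic area, prostaglandin E2 acts on neurons through receptors that change cyclic AMP during fever.

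The upstream sequences of Prkar1b, the highest subunit in these cells, and of Prkar2a, the lowest, are shown because the 2 genes lie at the ends of the range of levels. Each is the 250 bases before the RefSeq start (GRCm38.p6), read 5′ to 3′ on the gene's strand. Prkar1b lies on the minus strand, chr5:139150002-139150251. Prkar2a lies on the plus strand, chr9:108691893-108692142, a RefSeq start 2829 bases from the start of the GENCODE gene. Capitals mark TGACG or its reverse complement CGTCA, the core of the cyclic AMP response element, searched on both strands.
Prkar1b: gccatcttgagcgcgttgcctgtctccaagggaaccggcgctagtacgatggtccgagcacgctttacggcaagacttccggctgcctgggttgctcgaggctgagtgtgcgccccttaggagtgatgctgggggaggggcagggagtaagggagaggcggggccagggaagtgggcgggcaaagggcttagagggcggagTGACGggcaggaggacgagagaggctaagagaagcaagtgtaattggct
Prkar2a: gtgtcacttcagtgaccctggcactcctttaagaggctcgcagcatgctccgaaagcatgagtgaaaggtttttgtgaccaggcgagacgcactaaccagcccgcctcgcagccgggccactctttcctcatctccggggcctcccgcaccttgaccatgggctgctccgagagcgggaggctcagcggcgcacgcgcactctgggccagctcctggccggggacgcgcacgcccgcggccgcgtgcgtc
The Prkar1b window held 1 such core and the Prkar2a window none. The same core was found in 17.8% of 32851 RefSeq windows of that length. It occurred 2 times before Prkaca, 1 time each before Prkacb and Prkar1a, and not before Prkar2b. The full palindrome TGACGTCA, which contains both cores, is held by 1.55% of all windows and by none of the 6. The GC box GGGCGG, held by 32.7% of windows, occurred 2 times before Prkar1b and not before Prkar2a. The Prkar2a window held 24 CpG dinucleotides and the Prkar1b window 16, against a median of 6 over all windows. These matches describe letters in 1 annotated window per gene and were not set against any measure of binding.

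The 6 genes lie on 6 chromosomes of mm10 by GENCODE M21. Prkaca (ENSMUSG00000005469.10) spans chr8:83972993-83996443 on the plus strand and has 1 named pseudogene. Prkacb (ENSMUSG00000005034.15) spans chr3:146729574-146812990 on the minus strand and overlaps a processed pseudogene on the other strand. Prkar1a (ENSMUSG00000020612.16) spans chr11:109649405-109669656 on the plus strand. Prkar1b (ENSMUSG00000025855.13) spans chr5:139017306-139150001 on the minus strand and overlaps the transcript Gm15672 on the same strand. Prkar2a (ENSMUSG00000032601.13) spans chr9:108689314-108750436 on the plus strand and overlaps a small nuclear RNA on the other strand. Prkar2b (ENSMUSG00000002997.15) spans chr12:31958476-32061296 on the minus strand. Whether counting used strand was not given in the sources used here, so reads of the overlapping genes and of the Prkaca pseudogene cannot be told apart from those of Prkacb, Prkar1b, Prkar2a and Prkaca.

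Libraries held 465167 to 3660726 counts, of which 53.2% fell on Rn45s, the ribosomal RNA precursor. The median share of Rn45s in a cell's counts was 45.4% for insensitive, 67.7% for warm-sensitive, 56.1% for cold-sensitive, 55.0% for silent insensitive and 61.8% for silent sensitive cells, and 15 of the 96 cells exceeded 75%. Median genes with a count per cell were 4022, 3244, 4645, 3668.5 and 3230 in the same order. All 10 neuronal markers (Snap25, Syt1 and others) were found in every class, with a median summed level of 3578 CPM (counts scaled to 1000000 per cell) for insensitive, 1739 for warm-sensitive, 3230 for cold-sensitive, 2463 for silent insensitive and 1821 for silent sensitive cells. Markers of other cells were present too. In the same order of classes, the 11 microglial markers summed to medians of 561, 980, 3511, 1031 and 1017 CPM. The 9 astrocyte markers summed to medians of 1012, 710, 733, 972 and 509.5 CPM. The 9 oligodendrocyte markers summed to medians of 136, 120, 497, 328 and 677 CPM, and reached 17541 CPM in 1 warm-sensitive cell. The 5 endothelial markers summed to a median of 0 and at most 502.8 CPM, and 2 of them, Cldn5 and Ly6c1, had no count in any cell. A gene counted as detected in a cell at 10 CPM or more, which stood for 4.65 to 36.6 counts.

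**Figure D1:**
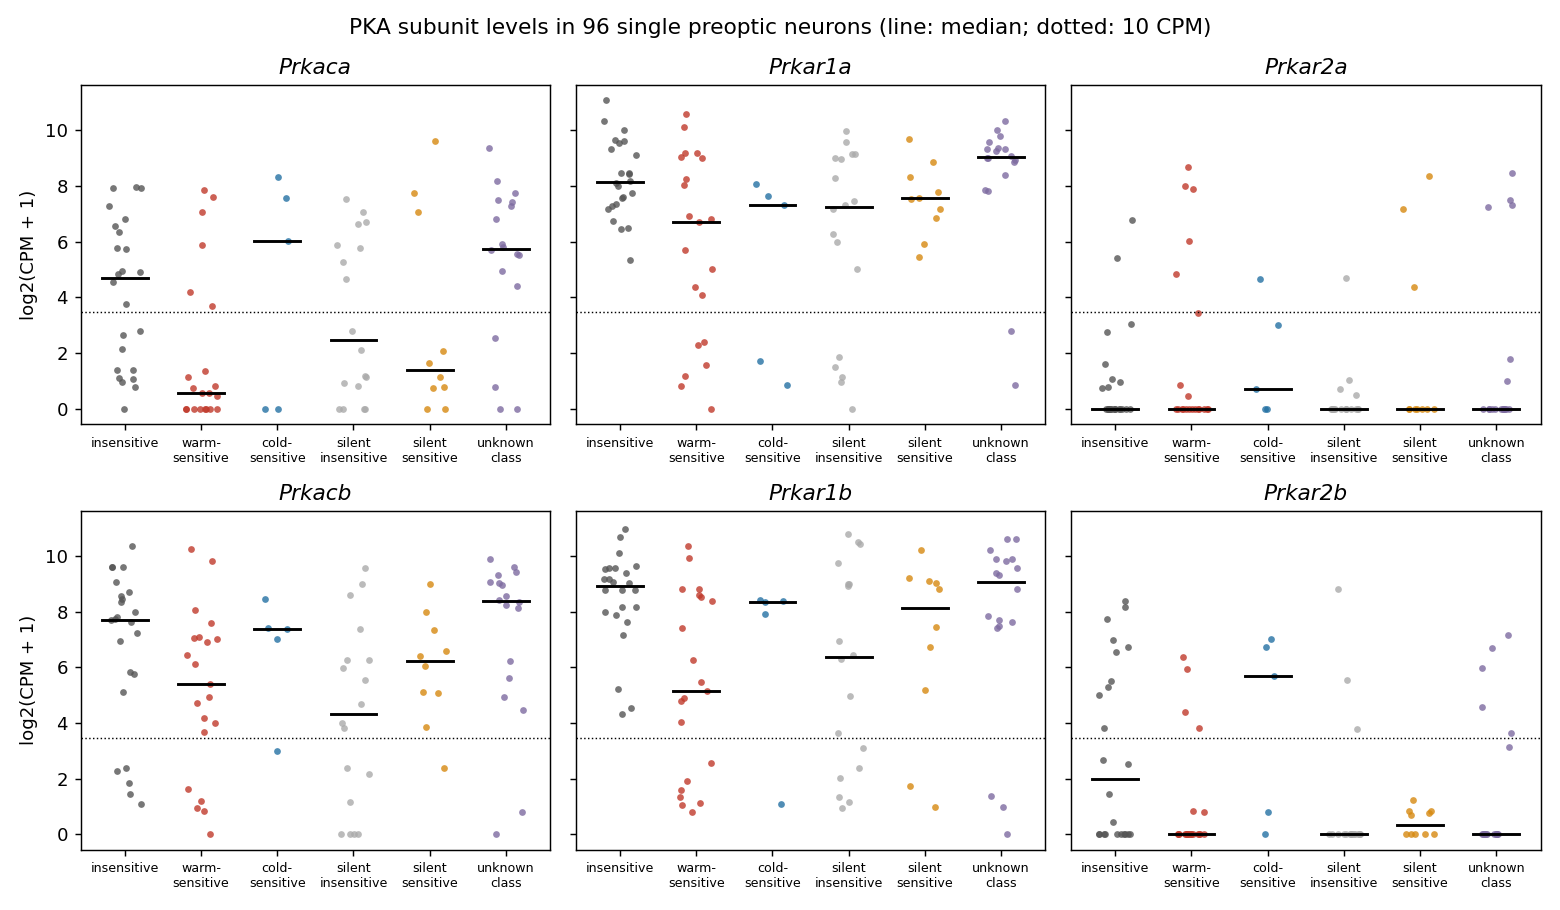
Level of each PKA subunit in each of the 96 cells, as log2(CPM + 1) on the vertical axis, by temperature class on the horizontal axis; each point is 1 cell, the bar is the class median and the dotted line is 10 CPM. Prkar1a and Prkar1b lie above the dotted line in all 24 insensitive cells, while Prkar2a lies at 0 in 63 of the 96 cells.

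Set per kilobase of annotated exon, the type I regulatory subunits were the most abundant members. The median RPKM, reads per kilobase of exon scaled to library size, over all 96 cells was 75.6 for Prkar1b, 52.2 for Prkar1a, 10.3 for Prkacb and 3.56 for Prkaca, and 0 for both Prkar2a and Prkar2b. Counts summed over all cells gave 116.9 RPKM for Prkar1b, 94.3 for Prkar1a, 27.3 for Prkaca, 26.6 for Prkacb, 9.51 for Prkar2b and 3.78 for Prkar2a. The 2 catalytic genes thus changed places between the median and the sum. The range of every subunit over the 96 cells began at 0, so no neighbours in this order were separated beyond their spread over cells. The exon length used for Prkacb, 8772 bases, joins several alternative first exons and can lower its RPKM.

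Prkaca, the catalytic subunit found in most tissues, was detected in 48 of 96 cells. In insensitive cells it ran from 0 to 249 CPM with a median of 24.9, and 14 of 24 cells were detected. In warm-sensitive cells it ran from 0 to 228 CPM with a median of 0.49, and 6 of 21 were detected. The 5 cold-sensitive cells had 0, 0, 63.9, 187 and 316 CPM. The cold-sensitive cells were thus either empty of Prkaca or above the insensitive median, and all classes overlapped. Silent insensitive cells ran from 0 to 185 CPM with a median of 4.6 (8 of 18 detected). Silent sensitive cells ran from 0 to 788 CPM with a median of 1.68, and only 3 of the 10 were detected, at 133, 215 and 788 CPM. Cells of unknown class ran from 0 to 650 CPM with a median of 52.6.

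Prkacb, the catalytic subunit abundant in brain, was detected in more cells, 75 of 96. Insensitive cells ran from 1.15 to 1299 CPM with a median of 208, and 19 of 24 were detected. Warm-sensitive cells ran from 0 to 1209 CPM with a median of 40.9, and 16 of 21 were detected. The shares of detected insensitive and warm-sensitive cells were thus close, 79.2% and 76.2%, while the medians differed. Cold-sensitive cells had 6.93, 127, 163, 169 and 346 CPM. Silent insensitive cells ran from 0 to 754 CPM with a median of 19.7 (11 of 18 detected). Silent sensitive cells ran from 4.27 to 513 CPM with a median of 73.6, and 9 of 10 were detected. Every silent sensitive cell had counts of Prkacb, whereas 4 of the 18 silent insensitive cells had none. These were cells 3, 9, 15 and 17, with 3576, 3147, 2319 and 2128 genes with a count, and the part of cell quality was not tested. Cells of unknown class ran from 0 to 943 CPM with a median of 334. In 56 of the 96 cells Prkacb had the higher RPKM of the 2 catalytic genes, and it made up 49.3% of the catalytic RPKM of the summed counts.

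Prkar1a, the type I regulatory subunit of most tissues, was detected in 81 of 96 cells. All 24 insensitive cells were detected, from 39.4 to 2150 CPM with a median of 280. Warm-sensitive cells ran from 0 to 1517 CPM with a median of 102, and 15 of 21 were detected. Among the 5 cold-sensitive cells the values were 0.819, 2.31, 158, 196 and 264 CPM. None of the 5 cold-sensitive cells reached the insensitive median, and 2 of them lay below the lowest insensitive cell. Silent insensitive cells ran from 0 to 995 CPM with a median of 150 (13 of 18 detected). All 10 silent sensitive cells were detected, from 43.1 to 822 CPM with a median of 187. The low values that occurred in 5 of the 18 silent insensitive cells, from 0 to 2.65 CPM, had no counterpart among the silent sensitive cells. These were cells 4, 5, 6, 9 and 17, with 2301, 2492, 2415, 3147 and 2128 genes with a count. Silent sensitive cells had at least 2666 genes with a count. Silent insensitive cells 15 and 16, with 2319 and 2443 genes, had 142 and 307 CPM. The part of cell quality was not tested. Cells of unknown class ran from 0.805 to 1296 CPM with a median of 528.

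Prkar1b, the neuronal type I regulatory subunit, was detected in 77 of 96 cells. All 24 insensitive cells were detected, from 18.9 to 1978 CPM with a median of 482. Warm-sensitive cells ran from 0.751 to 1321 CPM with a median of 34.4, and 14 of 21 were detected. Cold-sensitive cells stood at 1.16, 238, 326, 335 and 343 CPM. Warm-sensitive cells therefore ran from below the lowest insensitive cell to well above the insensitive median, and 4 of the 5 cold-sensitive cells lay close together, below the insensitive median. Silent insensitive cells ran from 0.937 to 1756 CPM with a median of 81.6 (12 of 18 detected). Silent sensitive cells ran from 0.991 to 1193 CPM with a median of 311 (8 of 10 detected). Both silent classes held cells at about 1 CPM and cells above 1000 CPM. Cells of unknown class ran from 0 to 1577 CPM with a median of 547.

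Prkar2a, a type II regulatory subunit, was the least detected member, in 16 of 96 cells, and 63 cells had no count of it. Among insensitive cells, cell 10 had 108 CPM and cell 24 had 41.4, and the other 22 had 0 to 7.28 CPM. Among warm-sensitive cells, 5 of 21 were detected, at 27.8, 63.3, 236, 252 and 403 CPM. Both classes had a median of 0, and the ranges overlapped. In the cold-sensitive class the 5 cells had 0, 0, 0.639, 7.03 and 24.2 CPM. Silent insensitive cells held 1 detected cell of 18, at 24.9 CPM, and the others had at most 1.06. Silent sensitive cells held 3 of 10, at 19.7, 144 and 323 CPM, and the other 7 had none. Of the cells of known class, 3 warm-sensitive and 2 silent sensitive cells lay above the highest insensitive cell. This describes values that selected the gene and supports nothing further. Cells of unknown class ran from 0 to 352 CPM with a median of 0, and 4 of 18 were detected. These 4, at 150 to 352 CPM, also lay above the highest insensitive cell. The lowest detected cell had 19.7 CPM and the highest cell left undetected had 9.77 CPM. The share of counts in Rn45s was 78.8% and 73.9% in the warm-sensitive cells with 403 and 236 CPM, and 73.9% and 78.1% in the silent sensitive cells with 323 and 144 CPM. It was 67.7%, 60.9% and 31.5% in the warm-sensitive cells with 252, 63.3 and 27.8 CPM, 58.6% in the silent sensitive cell with 19.7 CPM and 56.1% in the cold-sensitive cell with 24.2 CPM. Its part in these values was not tested.

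Prkar2b, the type II regulatory subunit abundant in brain, was detected in 25 of 96 cells. Insensitive cells ran from 0 to 331 CPM with a median of 3.25, and 10 of 24 were detected. Warm-sensitive cells ran from 0 to 82.4 CPM with a median of 0, and 4 of 21 were detected. The values of the 5 cold-sensitive cells were 0, 0.730, 51.1, 104 and 130 CPM. Silent insensitive cells ran from 0 to 454 CPM with a median of 0, and the 3 detected of 18 had 12.6, 45.2 and 454. No silent sensitive cell was detected, 0 of 10, which allows a share of up to 30% by the rule of 3 cells and up to 30.8% by the exact 95% interval. The highest silent sensitive cell had 1.36 CPM, and 5 of the 10 had a count. Cells of unknown class ran from 0 to 141 CPM with a median of 0.

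**Figure D2:**
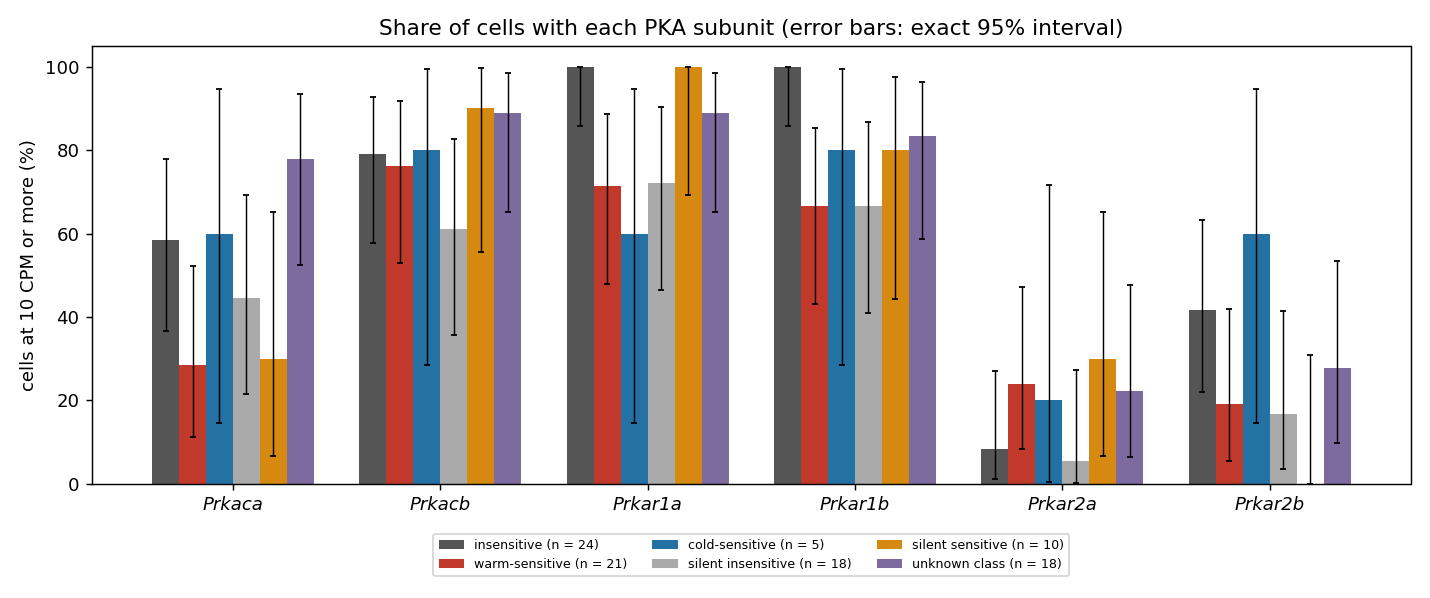
Percent of cells at 10 CPM or more (vertical axis) for each PKA subunit (horizontal axis) in each temperature class; bars are shares and error bars are exact Clopper-Pearson 95% intervals that cover counting of cells only. Prkar1a and Prkar1b reach 100% in insensitive cells, and Prkar2a and Prkar2b are the lowest pair, with Prkar2a level with Prkaca at 30% in silent sensitive cells, in all classes but the cold-sensitive, where Prkaca, Prkar1a and Prkar2b each reach 60% of 5 cells.

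Cells differed in how many members they expressed. The median was 3 of the 6 subunits per cell. No subunit was detected in 2 cells, 1 in 7, 2 in 13, 3 in 28, 4 in 28, 5 in 15 and all 6 in 3 cells. The cells with none were cold-sensitive cell 4 and silent insensitive cell 6. A regulatory subunit was detected in 92 cells, a catalytic subunit in 82, and both kinds in 80. Type II regulatory subunits were detected in 36 cells and in no cell without a type I subunit. Type I subunits were detected without a type II subunit in 56 cells.

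**Figure D3:**
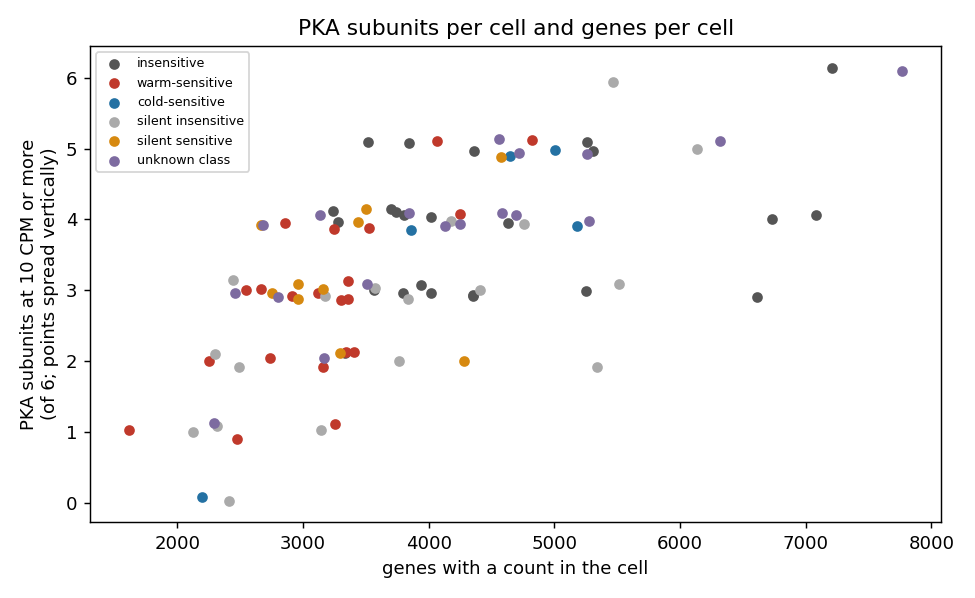
Number of PKA subunits at 10 CPM or more in each cell (vertical axis, 0 to 6, points spread vertically) against the number of genes with a count in that cell (horizontal axis), coloured by temperature class; each point is 1 of 96 cells. The 3 cells with all 6 subunits have 5471, 7210 and 7770 genes with a count.

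The joint pattern of the type I genes differed in its counts between classes. Both Prkar1a and Prkar1b were detected in 24 of 24 insensitive cells, 9 of 21 warm-sensitive, 3 of 5 cold-sensitive, 8 of 18 silent insensitive and 8 of 10 silent sensitive cells. Among the 92 cells with a detected regulatory subunit, the one with the highest RPKM was Prkar1b in 51, Prkar1a in 37, Prkar2a in 2 and Prkar2b in 2. Both of these cells led by Prkar2a were warm-sensitive. Prkar2a and Prkar2b were detected together in 5 cells, 31.2% of the cells with Prkar2a and 20% of those with Prkar2b. Of the 16 cells with Prkar2a, 14 had Prkar1a, 13 had Prkar1b, 13 had Prkacb and 9 had Prkaca.

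As shares of the summed regulatory RPKM, the type I genes made up 94.1% over all cells, from 85.7% in cold-sensitive to 96.6% in silent insensitive cells. Prkar2a made up 0.38% among insensitive, 4.61% among warm-sensitive, 0.97% among cold-sensitive, 0.18% among silent insensitive and 4.57% among silent sensitive cells. The share of Prkar2b was 6.93% in insensitive, 1.77% in warm-sensitive and 13.4% in cold-sensitive cells, 3.26% in silent insensitive cells and 0.08% in silent sensitive cells. Prkar2a was thus the larger type II share in the warm-sensitive and silent sensitive classes, and Prkar2b in the insensitive, cold-sensitive and silent insensitive classes. Many of these shares rested on 1 cell, which held 92.3% of the Prkar2a CPM among silent insensitive, 75.9% among cold-sensitive, 66.3% among silent sensitive and 64.4% among insensitive cells, and 88.7% of the Prkar2b CPM among silent insensitive cells. Without its highest cell the Prkar2a share was 0.16% among insensitive (cell 10 left out), 2.5% among warm-sensitive (cell 20), 0.22% among cold-sensitive (cell 2), 0.015% among silent insensitive (cell 2) and 1.97% among silent sensitive cells (cell 2). The Prkar2b share was 0.69% without silent insensitive cell 5, 7.93% without cold-sensitive cell 2 and 0.67% without warm-sensitive cell 3. The larger type II gene of each class was the same in each of these cases, which were chosen after the values were seen.

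**Figure D4:**
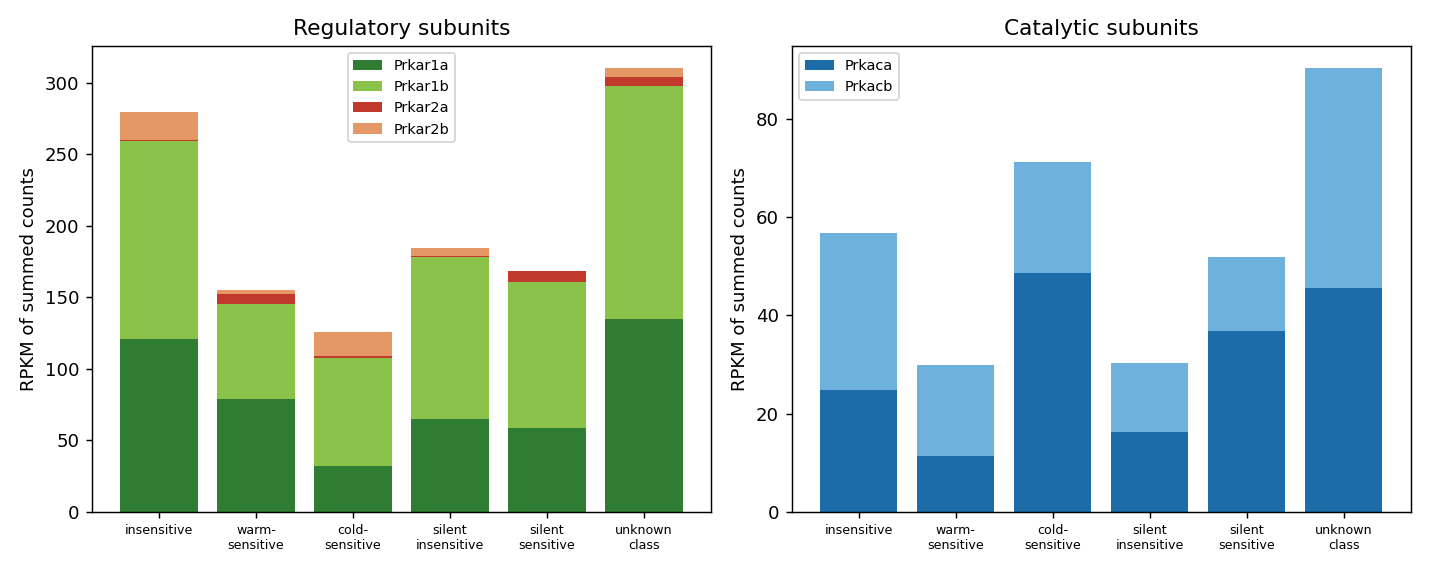
RPKM of summed counts (vertical axes, from 0) in each temperature class (horizontal axes), stacked by gene, for the regulatory subunits on the left and the catalytic subunits on the right. Prkar1a and Prkar1b fill most of each regulatory bar, and the total runs from 125.4 RPKM in cold-sensitive to 310.4 in unknown-class cells.

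Members were weakly related across cells. Over the 96 cells, Pearson correlations of log2(CPM + 1) ran from -0.06 between Prkacb and Prkar2a to 0.41 between Prkaca and Prkar1a. The points share library depth and cell quality. Spearman correlation with genes per cell was 0.43 for Prkaca, 0.43 for Prkacb, 0.41 for Prkar1a, 0.35 for Prkar1b, 0.40 for Prkar2b and 0.25 for Prkar2a. With the Rn45s share it was -0.58 for Prkar1a, -0.50 for Prkacb, -0.44 for both Prkaca and Prkar1b, -0.24 for Prkar2b and -0.02 for Prkar2a. The subunits other than Prkar2a tended to be lower in cells with a higher share of Rn45s. As CPM used all counts, Rn45s included, a higher Rn45s share by itself lowers the CPM of every other gene. Part of these correlations was thus fixed in advance, and they were not computed on totals without Rn45s.

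In all, 5 comparisons between classes were made, each as the difference of the mean of log2(CPM + 1) over cells, which compresses differences of low genes. Genes were eligible when 10 CPM was reached in at least 25% of cells, and at least 3 cells, of either class, and a difference of 1 or more was counted as higher or lower. Within all eligible genes the median difference was below 0 in every comparison, so each member is also given relative to that median. The first comparison set all 36 sensitive cells against all 42 insensitive cells and is the one that selected the family. Prkar2a had a mean of 1.90 ± 3.00 (SD, n = 36) in sensitive and 0.72 ± 1.56 (SD, n = 42) in insensitive cells, a difference of 1.19. It was detected in 9 of 36 sensitive cells (25%, exact 95% interval 12.1 to 42.2%) and 3 of 42 insensitive cells (7.14%, 1.5 to 19.5%). At 1 count or more the cells were 14 of 36 (38.9%) and 13 of 42 (31.0%), so the classes lay closer in holding any count than in reaching 10 CPM. Without cells over 75% Rn45s they were 7 of 26 (26.9%) and 3 of 38 (7.89%). Over summed counts Prkar2a stood at 39.4 CPM (exact Poisson 95% interval 37.7 to 41.2) and 5.11 CPM (4.56 to 5.70), intervals that cover counting error only.

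In that comparison 1 of the 6 eligible members was higher by at least 1, where 0.241% of 3733 eligible genes were, and 3 were lower by at least 1, where 48.6% were. Prkar2a was eligible only through the sensitive cells and Prkar2b only through the insensitive cells, and nothing is read from these counts. The differences were -1.13 for Prkaca, -0.08 for Prkacb, which was higher in 12 of 14 other settings, -1.14 for Prkar1a, -1.44 for Prkar1b and -0.83 for Prkar2b, beside a median of -0.98 over genes. Relative to that median Prkar2a stood at 2.16, and the other members between -0.47 (Prkar1b) and 0.89 (Prkacb), so that 1 of 6 was higher by at least 1, where 7.47% of genes were, and none lower, where 6.56% were. A gene with no count in these cells stands at 0.98 on that scale. The direction of Prkaca turned with summed counts, to 0.20, and that of Prkar1a with DESeq2 size factors, to 0.11. DESeq2 size factors moved the median gene to -0.19, and the split of eligible genes from 7.82% higher to 36.9% higher. Within letters of the cell titles, whose meaning was not given in the sources used here, Prkar2a differed by 0.84, Prkaca by -1.73, Prkacb by 0.08, Prkar1a by -1.62, Prkar1b by -1.19 and Prkar2b by -0.76.

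**Figure D5:**
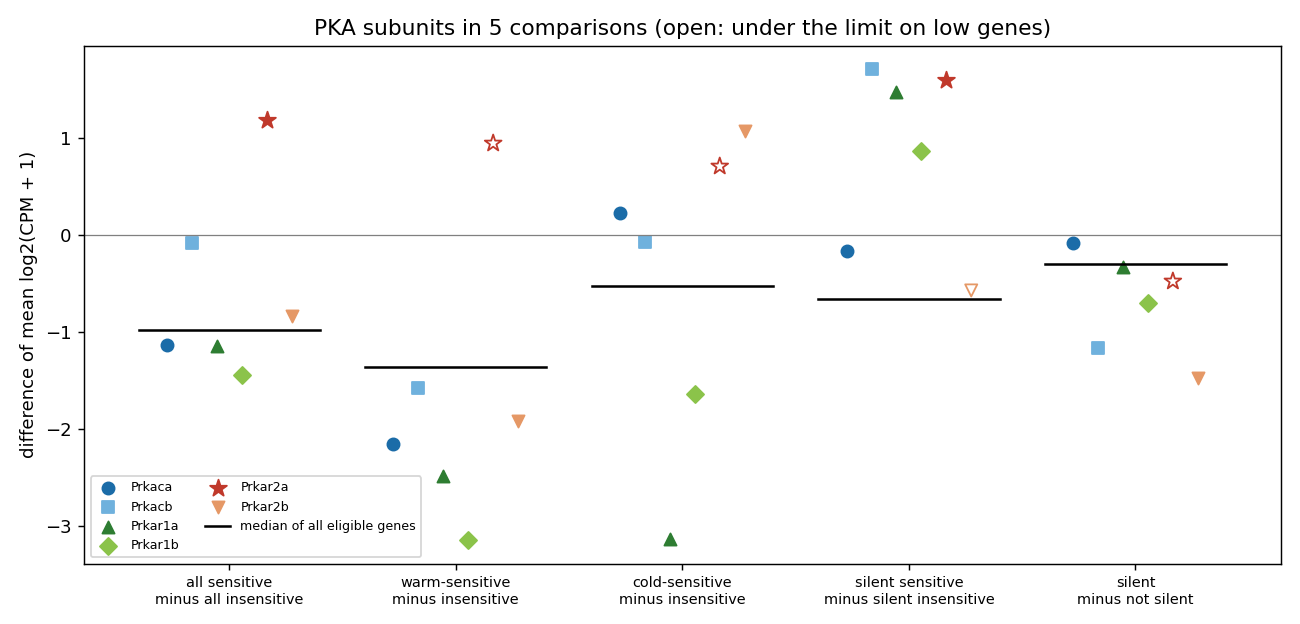
Difference of mean log2(CPM + 1) (vertical axis) for each PKA subunit in the 5 comparisons (horizontal axis); each marker is 1 gene, open markers are genes under the limit on low genes, and the black bar is the median over all eligible genes. Prkar2a is above the black bar in the 4 comparisons of sensitive with insensitive cells, and all 5 other subunits lie below it in the warm-sensitive comparison. The bar is below 0 in each comparison, so a gene with no difference also lies above it. These 4 comparisons reuse the cells that selected Prkar2a, so its place in them is a description.

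Warm-sensitive cells had lower levels of both type I genes and of Prkaca than insensitive cells. Prkar1b had a mean log2(CPM + 1) of 5.33 ± 3.27 (SD, n = 21) against 8.47 ± 1.72 (SD, n = 24), a difference of -3.15. Prkar1a had 5.77 ± 3.36 against 8.25 ± 1.39, a difference of -2.48. Both were found in all 24 insensitive cells (100%, exact 95% interval 85.8 to 100%), and in 66.7% (43.0 to 85.4%) and 71.4% (47.8 to 88.7%) of warm-sensitive cells. The differences were -2.15 for Prkaca, -1.58 for Prkacb and -1.92 for Prkar2b, the last eligible only through the insensitive cells. All 5 eligible members were lower by at least 1, where 67.6% of 4601 genes were, and none was higher, where 0.522% were. This count lay near what most genes showed, and the members separated more relative to the median gene, which was at -1.36. On that scale 2 of 5, Prkar1b at -1.78 and Prkar1a at -1.12, were lower by at least 1, where 13% of genes were, and none was higher, where 10% were. Prkaca, Prkar1a and Prkar1b kept their sign in all 13 other settings, Prkaca from -3.41 to -0.79, Prkar1a from -3.13 to -0.62 and Prkar1b from -3.64 to -1.05. Prkar2b was also lower in all 13, from -2.89 to -0.55. As it passed the limit only through the insensitive cells, nothing is read from its kept sign or its place in these counts. Summed counts gave Prkar1a its -0.62 and Prkar1b its -1.05, so the type I differences were smallest on that scale. Prkacb turned to 0.0099 with DESeq2 size factors. That scaling moved the median gene to -0.40 and the eligible genes from 5.11% to 29.2% higher. Within title letters the differences were -2.74 for Prkar1b, -2.64 for Prkar1a, -2.46 for Prkaca, -1.39 for Prkacb, -1.63 for Prkar2b and 0.48 for Prkar2a. The median Rn45s share was 67.7% against 45.4%, and the summed neuronal markers had a median of 1739 against 3578 CPM. On totals without Rn45s the median gene stood at -1.35, beside -1.36 on all counts. The part of cell quality and of the markers in the lower levels was not tested. Prkar2a was under the limit on low genes in both classes, with a difference of 0.95, or 0.61 without warm-sensitive cell 20. Over summed counts it stood at 45.5 CPM (43.0 to 48.1) and 6.77 CPM (5.99 to 7.62).

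For the 5 cold-sensitive cells the same 24 insensitive cells served as controls, so both comparisons share them. Prkar1a had a mean of 5.12 ± 3.51 (SD, n = 5) against 8.25 ± 1.39, a difference of -3.13, and was lower in all 13 other settings, from -3.81 to -1.90. Without cold-sensitive cell 2 the difference was -2.07. The difference of Prkar1b was -1.63, lower in all 13 other settings, and -0.20 without cold-sensitive cell 4. Prkar2b had a mean of 4.05 ± 3.38 against 2.97 ± 3.20, a difference of 1.08, but summed counts gave -0.20, and the difference was 0.33 without cell 2 and 2.09 without cell 4. Prkaca differed by 0.23, from -0.75 without cell 1 to 1.33 without cell 2, and was higher in 12 of 13 other settings. Prkacb differed by -0.07, or 0.84 without cell 4, and was higher in 8 of 13 other settings. Prkar2a differed by 0.71 and by -0.033 without cell 2, its only detected cell in the class. Of the 5 eligible members, 1 was higher by at least 1, where 13.9% of 4644 genes were, and 2 were lower, where 35.4% were. Relative to the median gene, at -0.52, Prkar2b at 1.6 was higher by at least 1, where 22.8% of genes were, and Prkar1a at -2.61 and Prkar1b at -1.11 were lower, where 21.2% were. With DESeq2 size factors 39.1% of eligible genes were higher, against 34.4%. Leaving out 1 cell thus turned the direction of Prkaca, Prkacb and Prkar2a and moved the size of the other 3 by over 1.5 times. Within title letters the differences were -2.93 for Prkar1a, -0.83 for Prkar1b, 2.68 for Prkar2b, 0.95 for Prkaca, 1.15 for Prkacb and 1.22 for Prkar2a. The 11 microglial markers summed to 11.6 to 11806 CPM in the cold-sensitive cells and 4.19 to 17225 CPM in the insensitive cells, with medians of 3511 and 561 CPM. All 10 eligible markers of that list of 11 were higher in the cold-sensitive cells by at least 1, with a median difference of 1.65 beside -0.52 over all genes, while Tmem119 had no count there. The endothelial markers summed to 0 to 153.7 CPM in the cold-sensitive cells, with a median of 37.1 against 0, and Itm2a, the 1 eligible of 5, was higher by 2.57. Of 5 eligible astrocyte markers 3 were lower by at least 1 and none higher, with a median of -1.45. Of 4 eligible oligodendrocyte markers 2 were higher by at least 1 and none lower, with a median of 1.41. The part of these markers in the differences was not tested.

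The 10 silent sensitive cells were set against the 18 silent insensitive cells. Prkacb had a mean of 5.97 ± 1.96 (SD, n = 10) against 4.26 ± 3.27 (SD, n = 18), a difference of 1.71. Its summed counts were close, 132 CPM and 122 CPM, a log2 ratio of 0.11. Prkar1a had 7.52 ± 1.27 against 6.04 ± 3.43, a difference of 1.48. Prkar1a was detected in 100% of silent sensitive cells (exact 95% interval 69.2 to 100%) and 72.2% of silent insensitive cells (46.5 to 90.3%), while summed counts were 252 CPM and 281 CPM. Its direction turned with summed counts, to -0.16, and the highest cell was silent insensitive, at 995 CPM against 822. Genes with a count ran from 2666 to 4574 in silent sensitive and from 2128 to 6137 in silent insensitive cells, and their part was not tested. The difference of Prkar1b was 0.87, but -0.43 without cells over 75% Rn45s and -0.14 with summed counts, and it moved from 0.50 without silent sensitive cell 1 to 1.52 without silent sensitive cell 8. Prkaca differed by -0.16, higher in 7 of 13 other settings, and by -0.89 without silent sensitive cell 9. Prkar2b, under the limit on low genes in both classes, differed by -0.57, and by -0.11 without silent insensitive cell 5. Prkar2a, eligible only through the sensitive cells, differed by 1.6, and by 0.90 without silent sensitive cell 2. Over summed counts it stood at 49.1 CPM (45.3 to 53.1) and 2.08 CPM (1.53 to 2.78). Of the 5 eligible members, 3 were higher by at least 1, where 10.4% of 3459 genes were, and none was lower, where 38.7% were. Relative to the median gene, at -0.65, 4 of 5 were higher by at least 1, where 23% of genes were, and none was lower, where 18% were. Prkar2a is 1 of these 3 and 4, and these silent cells are also among those that selected it. DESeq2 size factors moved the median gene to 0.06 and the eligible genes from 30.7% to 52.4% higher. Within title letters the differences were 2.36 for Prkacb, 0.58 for Prkar1a, 0.93 for Prkar1b, -1.16 for Prkaca and 1.27 for Prkar2a.

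Silent cells of both kinds were set against the 50 cells not labelled silent, a contrast that did not select the family. Prkar2b had a mean of 0.80 ± 2.01 (SD, n = 28) in silent and 2.27 ± 2.96 (SD, n = 50) in other cells, a difference of -1.47. It was detected in 3 of 28 silent cells (10.7%, exact 95% interval 2.27 to 28.2%) and 17 of 50 others (34%, 21.2 to 48.8%). Prkacb had 4.87 ± 2.95 against 6.04 ± 2.89, a difference of -1.17. Both were lower in silent cells in all 14 other settings, Prkar2b from -2.17 to -0.72 and Prkacb from -1.63 to -0.75. As Prkar2b passed the limit on low genes only through the cells not labelled silent, nothing is read from the direction it kept. The differences were -0.70 for Prkar1b, which turned to 0.06 with summed counts, and -0.32 for Prkar1a, which turned to 0.18 in 1 setting, DESeq2 size factors. Prkaca differed by -0.08, with 7 of 14 settings on each side of 0. Prkar2a was under the limit on low genes and differed by -0.47, with 19.4 CPM in silent and 20.6 CPM in other cells by summed counts. Of the 5 eligible members, 2 were lower by at least 1, where 15.3% of 3481 genes were, and none was higher, where 2.73% were. Prkar2b was eligible only through the cells not labelled silent. Within title letters Prkar2b differed by -1.89, Prkacb by -1.47 and Prkar2a by -0.15. Relative to the median gene 1 of 5, Prkar2b at -1.18, was lower by at least 1, where 7.56% of genes were, and none was higher, where 7.9% were. As Prkar2b passed the limit only through the other cells, nothing is read from its place in either count. The median gene was at -0.29, and at -0.05 with DESeq2 size factors, which moved the eligible genes from 34.3% to 46.4% higher.

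The other genes of the pathway were read from 11 lists with 110 genes, of which 109 were in the table. Among all sensitive against all insensitive cells 31 were eligible, 1 was higher by at least 1 and 12 were lower. The higher gene was Gabbr1, a subunit of the Gi-coupled GABA-B receptor, at 1.02, and the lowest was Gnai1, an inhibitory G protein alpha subunit, at -2.04. Ppp1r1a, a PKA substrate that inhibits protein phosphatase 1, stood at -1.48, Pkia, an inhibitor that binds free catalytic subunits, at -1.44, Ensa, a phosphatase inhibitor, at -1.42, and the adenylyl cyclase Adcy2 at -1.41. Gnai1, Ppp1r1a and Adcy2 passed the limit on low genes only through the insensitive cells, so nothing is read from their place. Over all eligible genes 0.241% were higher and 48.6% lower by at least 1. Relative to the median gene, at -0.98, 19 of the 31 pathway genes lay above it. On that scale 4 were higher by at least 1, where 7.47% of genes were, and 1, Gnai1 at -1.06, was lower, where 6.56% were. Ppp1r1a stood at -0.50, Pkia at -0.46, Ensa at -0.44 and Adcy2 at -0.43 on it.

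In the warm-sensitive comparison 37 pathway genes were eligible, 1 was higher by at least 1 and 25 were lower, beside 0.522% and 67.6% of all eligible genes. Gabbr1 was again the higher gene, at 1.24. Gnai1 stood at -3.43 and was detected in 9.52% of warm-sensitive and 66.7% of insensitive cells. The cyclic nucleotide phosphodiesterase Pde2a stood at -2.60, the anchoring protein Akap9 at -2.48, Ensa at -2.02 and Pkia at -2.01. Of 6 eligible anchoring proteins 4 were lower by at least 1, with a median of -1.30 beside -1.36 over all genes. Of 6 eligible phosphodiesterases 5 were lower, with a median of -1.65. These 5, with Gnai1, Pkia and all of the eligible anchoring proteins but Akap8l, passed the limit on low genes only through the insensitive cells. Nothing is read from their place or from either count. Relative to the median gene, 22 of the 37 pathway genes lay above it. On that scale 4 were higher by at least 1, where 10% of genes were, and 3 lower, where 13% were.

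In the cold-sensitive comparison, which shares its controls, 37 were eligible, 8 higher by at least 1 and 15 lower, beside 13.9% and 35.4% of all eligible genes. The phosphodiesterases Pde1b at 1.92 and Pde4a at 1.80, Ppp1r1a at 1.33, the G protein subunit Gnao1 at 1.22 and Gabbr1 at 1.19 were the 5 highest. The CREB-responsive gene Junb stood at -2.51, Akap9 at -2.25, the CREB coactivator Crtc1 at -1.85 and the PACAP receptor Adcyap1r1 at -1.85. The anchoring protein Akap13 had no count in the cold-sensitive cells, 0 of 5, which allows a share of up to 60% by the rule of 3 cells, and was detected in 29.2% of insensitive cells. The lower genes named here passed the limit on low genes only through the insensitive cells, so nothing is read from their place. Relative to the median gene, 18 of the 37 lay above it. On that scale 11 were higher by at least 1, where 22.8% of genes were, and 8 lower, where 21.2% were.

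Among silent cells, sensitive against insensitive, 27 were eligible, 4 higher by at least 1 and 8 lower, beside 10.4% and 38.7% of all eligible genes. Akap11, an anchoring protein, stood at 2.82, detected in 70% of silent sensitive and 33.3% of silent insensitive cells. The CREB-responsive genes Fosb, Per1 and Nr4a1 stood at 1.42, 1.19 and 1.18, and Egr1, another of that list, at -1.75. Of the 7 eligible CREB-responsive genes 3 were higher and 1 lower by at least 1, with a median of 0.50 beside -0.65 over all genes. Adcy2 stood at -1.92, Ppp1r1a at -1.71, the anchoring protein Akap17b at -1.70 and Arpp19, a phosphatase inhibitor, at -1.59. All 3 eligible PKA substrates that act on phosphatases were lower by at least 1. Adcy2, Ppp1r1a and Akap17b passed the limit on low genes only through the silent insensitive cells, and Per1 only through the silent sensitive cells. Nothing is read from their place. Relative to the median gene, 18 of the 27 pathway genes lay above it. On that scale 11 were higher by at least 1, where 23% of genes were, and 4 lower, where 18% were.

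In silent against other cells 29 were eligible, none higher by at least 1 and 7 lower, beside 2.73% and 15.3% of all eligible genes. Crtc1 stood at -1.71, the phosphodiesterases Pde4d, Pde4a and Pde1a at -1.52, -1.51 and -1.35, and Nr4a1 at -1.26. Of the 5 eligible phosphodiesterases 3 were lower by at least 1, with a median of -1.35 beside -0.29 over all genes. These 3 passed the limit on low genes only through the cells not labelled silent, so nothing is read from this count. Relative to the median gene, 14 of the 29 pathway genes lay above it. On that scale 1 was higher by at least 1, where 7.9% of genes were, and 4 lower, where 7.56% were. No eligible gene came from the cyclic AMP effectors other than PKA (the Epac genes Rapgef3 and Rapgef4 and the Popeye genes) in any of the 5 comparisons.

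Cells were also set apart by the transmitter genes Gad1, which makes GABA, and Slc17a6, the vesicular glutamate transporter, each at 10 CPM or more. Prkar2a was detected in 11 of 42 cells with Gad1 only (26.2%, exact 95% interval 13.9 to 42.0%), 1 of 24 with Slc17a6 only (4.17%, 0.11 to 21.1%), 2 of 11 with both and 2 of 19 with neither. Prkar2b was detected in 26.2% of Gad1-only and 29.2% of Slc17a6-only cells. The type II genes thus differed in this split, with wide intervals. Prkacb had a median of 65.0 CPM in Gad1-only and 342.7 CPM in Slc17a6-only cells, and Prkar1a of 204 and 513 CPM. The median Rn45s share was 55.1% and 44.4% in these cells, and its part was not tested.

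The genes most like each member were sought among 2888 genes by Pearson correlation of log2(CPM + 1) over the 96 cells, a description in which all points share depth and cell quality. For Prkar1b these were Pnmal2 (0.63), the glycolytic enzyme gene Aldoa (0.59) and Tagln3 (0.56). For Prkar1a they were Vapa (0.53), the calmodulin gene Calm2 (0.53) and Rnf14 (0.51), and for Prkaca the respiratory chain gene Ndufb9 (0.51), the kinase gene Camk2g (0.50) and Ptges3 (0.49). Prkacb was closest to Ncdn (0.52), Gpr123 (0.46) and Usp9x (0.46). Prkar2b was closest to Ssbp3 (0.46), Cd83 (0.45) and Chd4 (0.44). Prkar2a, found in too few cells for the search list itself, had the lowest top values, with Btbd9 (0.38) and the secretion genes Rph3a (0.36) and Cadps (0.36), beside a median of 0.06 over all genes searched. For the other members that median lay between 0.14 (Prkar2b) and 0.20 (Prkaca and Prkar1a).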

How the data were processed

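Single neurons were collected after recording and amplified by Smart-seq2, as the labels' protocols state. The authors deposited raw counts for each gene in each cell. They also deposited a normalized signal table, which equals the counts times 1 constant per cell. The submitters' processing notes name FastQC, STAR, edgeR and the build mm10; versions, annotation, counting and strand use were not given in the sources used here.

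The members and gene lists were chosen with earlier results of these data known. Groups follow the labels. All 96 cells passed at least 100000 counts and 1000 genes, and no 2 cells held identical values. CPM used all counts, and RPKM the union of GENCODE M21 exons. Shares have exact Clopper-Pearson and summed counts exact Poisson 95% intervals. The pathway genes named in each comparison are up to 5 per direction, eligible, differing by at least 1 and in share in the same direction, ranked by size; 3 correlates were taken per member. The calculations were tested on simulated data. Alternatives used edgeR 4.0.16 (TMM), DESeq2 1.42.0 (size factors only), the deposited signal, pseudocounts of 0.1 and 10 CPM in place of 1, thinning to 100000 counts, summed counts, other detection limits, equal weights, cells under 75% Rn45s or with 2000 genes, title letters, no low-gene limit, and leave-one-out over cells. Totals without Rn45s were also used. Detection without cells over 75% Rn45s was chosen after seeing the data. Promoter windows are from RefSeq (GRCm38.p6), all 6 members matched. Python 3.11.15, pandas 2.3.3 and scipy 1.17.1 were used.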

Additional observations from a re-analysis of the deposited data

Results flagged for a closer look

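Among 12 sets of 1 subunit in 1 class of 5 or 10 cells, 2 held a cell far from the others of its class. For normally distributed values chance alone marks about 1 set in 20. CPM here was skewed with many values of 0, so that rate cannot be applied. Both marks fell on cold-sensitive cell 4, which had 2199 genes with a count, 69.8% Rn45s and no detected subunit. Prkacb was lowest in cold-sensitive cell 4, at 6.93 CPM, where the other 4 cells had 127 to 346. Prkar1b was lowest in cold-sensitive cell 4, at 1.16 CPM, where the other 4 cells had 238 to 343.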

How the results depend on the processing

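No paired analysis was possible because the labels tie no cell of a class to a cell of another class, and the numbers of cells within a class are only names. Leaving out each cell in turn, the difference of Prkar2a ran from 0.99 to 1.33 for all sensitive cells, 0.61 to 1.20 for warm-sensitive, -0.033 (without cell 2) to 1.13 for cold-sensitive, 0.90 to 1.86 for silent sensitive and -0.75 to -0.33 for silent against other cells. It kept its direction in 14 of 14, 13 of 13, 13 of 13, 13 of 13 and 14 of 14 other settings. The comparisons of sensitive with insensitive cells reuse the cells that selected Prkar2a, so directions kept there are a description and support nothing further. Relative to the median gene Prkar2a was at 2.16 for all sensitive, 2.31 for warm-sensitive and 2.26 for silent sensitive cells, and by summed counts at 2.73, 2.58 and 4.02. A pseudocount of 0.1 CPM gave 1.39 in cold-sensitive and one of 10 CPM gave 0.94 in silent sensitive cells. Among differences of at least 1 in size, directions reversed for Prkaca (0.20, summed counts) and Prkar1a (0.11, DESeq2 size factors) in all sensitive cells, Prkacb (0.0099, DESeq2 size factors) in warm-sensitive, Prkar2b (-0.20, summed counts) in cold-sensitive and Prkar1a (-0.16, summed counts) in silent sensitive cells; the cause was not tested. Among smaller differences, the sign also turned for Prkacb in all sensitive cells (higher in 12 of 14 settings) and in cold-sensitive cells (8 of 13), for Prkaca in cold-sensitive (lower in 1 of 13), silent sensitive (higher in 7 of 13) and silent against other cells (7 of 14), for Prkar1b in silent sensitive (-0.43 and -0.14) and silent against other cells (0.055), for Prkar1a in silent against other cells (0.18), and for Prkar2b in all sensitive (0.15) and silent sensitive cells (higher in 2 of 13). With no limit on low genes, genes higher by at least 1 went from 24 to 52 (warm-sensitive), 644 to 1477 (cold-sensitive) and 360 to 569 (silent sensitive), since more genes were counted, while the shares higher by at least 1 went from 0.241% to 0.0798% for all sensitive, 0.522% to 0.319% for warm-sensitive, 13.9% to 9.07% for cold-sensitive, 10.4% to 3.49% for silent sensitive and 2.73% to 0.762% for silent against other cells. The shares lower by at least 1 went from 48.6% to 12.8%, 67.6% to 21.8%, 35.4% to 14.1%, 38.7% to 12.3% and 15.3% to 3.8% in the same order. Thinning left out 1 cell. Among Prkar2a values under 10 CPM, the most counts were 19, in insensitive cell 18 at 7.28 CPM.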
